A study of Homo sapiens with 15 samples.

Results

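TF-1 cells that express a truncated RAD21 carried 21206 autosomal places where GATA2 was called and nothing else was: no GATA2 peak in the cells with wild-type RAD21, and no RUNX1 or SMC3 peak in either line. They were found by joining the peaks of all 6 deposited lists (3 targets in 2 lines) wherever they overlapped by at least 1 bp, and by keeping the regions that held a peak of the Q592* GATA2 list alone. The regions were thus chosen by the authors' calls, the presence of a peak in one list and its absence from the other 5. They made up 22.1% of the 96158 autosomal regions that the 6 lists form together, and 37.0% of the 57275 regions with a Q592* GATA2 peak. Their presence in one line and absence from the other is therefore a description and not a result.

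TF-1 is a human erythroleukemia cell line that grows on cytokines. Both lines carried a doxycycline-inducible vector and had 6 days of induction, one for wild-type (WT) RAD21 and the other for RAD21 Q592*, a form cut short by a stop codon. Whether the cells kept their own RAD21, and whether each line is 1 clone, is not stated in the labels. The ChIP-seq comprised 2 libraries per line for each of GATA2, RUNX1 and SMC3 (1 for RUNX1 in Q592*) and 2 inputs per line. One pooled peak list stands for each target and line, so there is no spread between libraries and no test between the lines.

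GATA2 is a zinc-finger transcription factor that maintains blood stem and progenitor cells and binds the GATA motif, mostly at enhancers away from promoters. RUNX1 is a second regulator of the same cells and often occupies the same enhancers. SMC3, like RAD21, belongs to cohesin, a ring of proteins that extrudes chromatin loops and holds sister chromatids, and truncating RAD21 mutations occur in myeloid leukemias. A place with GATA2 but neither RUNX1 nor cohesin above the callers' threshold is therefore one side of the occupancy of these cells, beside the sites shared by 2 or 3 of the proteins.

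Most Q592*-only GATA2 sites were of this solitary kind. Of 24842 autosomal regions with a GATA2 peak in Q592* and none in WT, 85.4% (95% Wilson interval 84.9 to 85.8%, which, as for every interval here, covers counting error only) held no peak of any other list. Of the remaining 3636, 1889 also held a RUNX1 peak and 2148 an SMC3 peak of either line, and 1023 held Q592* RUNX1 as the sole addition. In WT the proportions were similar on a smaller scale. The 4190 WT regions with GATA2 alone were 84.5% (83.5 to 85.5%) of the 4958 GATA2 regions without a Q592* partner, but 11.2% of all 37391 WT GATA2 regions. The solitary Q592* regions thus outnumbered the solitary WT regions by a ratio of 5.06, and this ratio was 1.02 with lists of equal length per target, which nearly force equal remainders. Of the 32433 regions with GATA2 in both lines, 17734 held no peak of another target, a smaller share than among the regions of 1 line.

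The solitary Q592* GATA2 sites were weak on the whole, with a minority of strong ones. The rule leaves out every region called in another list, and strong sites are the likelier to be called in WT as well. Lower strength than at sites of both lines thus follows in part from the choice. Each was 1 peak, with a median width of 213 bp. The median −log10 q was 8.397 and the median fold enrichment (ChIP pileup over local background, both the authors' values) was 3.99. Summit heights were recovered as whole reads, and the median was 43 ChIP reads (quartiles 35 and 55.75). A list's mean coverage is the number of ChIP reads expected over any base, 6.16 for Q592* GATA2 and 5.97 for WT GATA2. On that scale the median solitary region stood at 6.98 times the mean, against 11.4 times for the 17734 regions with GATA2 in both lines and no other target, and 9.74 times for the 1023 regions where Q592* GATA2 came with Q592* RUNX1. The WT regions with GATA2 alone (WT-alone regions) stood at 5.02 times the WT mean.

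**Figure D1:**
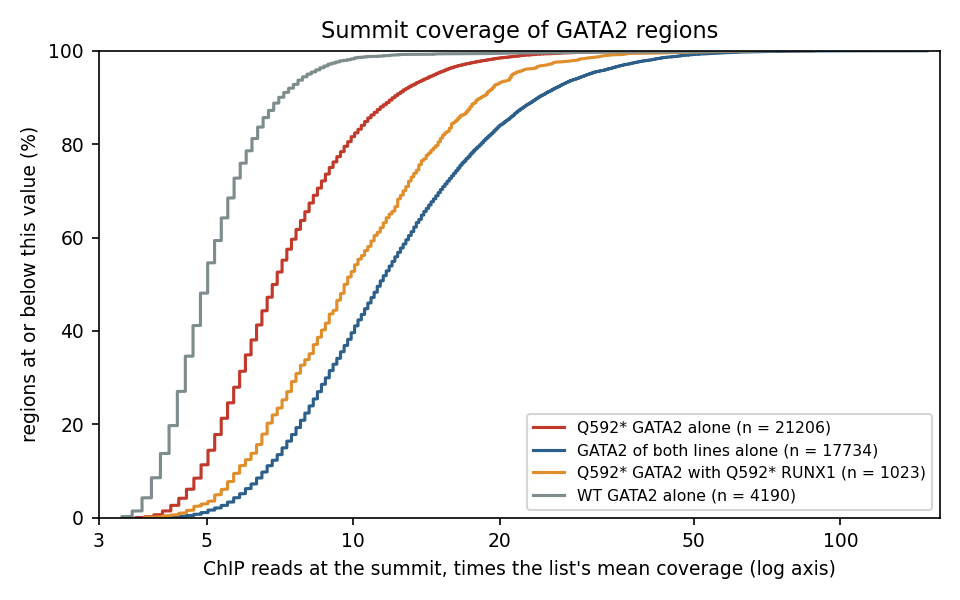
Cumulative share of regions (vertical axis, %) by ChIP reads at the summit divided by the mean coverage of the list (horizontal log axis), 1 line per kind of region; WT GATA2-alone regions use the WT list and the others the Q592* list. The Q592* GATA2-alone curve (median 6.98) lies between the WT GATA2-alone curve (5.02) and the curve of GATA2 regions of both lines without another target (11.4).

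High summits were more numerous among the solitary regions of Q592* than among those of WT, though at the highest multiple of mean coverage not as a share. This multiple takes no account of local background, whereas the −log10 q does. At least 10 times the mean coverage was reached by 3904 solitary Q592* regions (18.4%, 17.9 to 18.9%), where 50.6% of all Q592* GATA2 regions reached it, and by 74 of the solitary WT regions (1.77%, 1.41 to 2.21%). At 20 times the counts were 331 (1.56%) and 23 (0.549%), where 19.9% of all Q592* GATA2 regions reached it. At 30 times they were 65 and 15, and the shares overlapped within their intervals, with 0.307% (0.241 to 0.390%) of the solitary Q592* regions, 0.358% (0.217 to 0.590%) of the solitary WT regions and 10.5% of all Q592* GATA2 regions. Ordered by −log10 q, the weakest quartile of the Q592* GATA2 regions consisted to 70.5% of solitary regions, the next to 53.7%, the next to 22.3% and the strongest to 1.66%. The direction of this order is tied to the rule, which requires that no call be made in WT, and is not a separate result. A −log10 q of at least 100 was reached by 2 solitary regions, and by 9.34% (5350) of all Q592* GATA2 regions. At least 20 was reached by 1679 solitary Q592* regions (7.92%) and 4 solitary WT regions (0.0955%), where 40.9% of all Q592* GATA2 regions reached it. At least 50 was reached by 92 solitary Q592* regions (0.434%) and 0 solitary WT regions, and by 19.4% of all Q592* GATA2 regions.

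Local background was at least 2 times the genome-wide value at 29.1% (28.4 to 29.7%) of the solitary regions. The share was 38.7% at the GATA2 regions of both lines without another target. MACS2 compares each summit with the largest of several local background estimates, and this value lay at the genome-wide floor for 4012 solitary regions (18.9%, 18.4 to 19.5%). It did so for 13.3% of all Q592* GATA2 peaks, those outside the autosomes included, and for 10.7% of the GATA2 regions of both lines without another target. Its median was 1.54 times the genome-wide value, compared with 1.76 times for GATA2 regions of both lines without another target and 1.26 times for WT-alone regions, in the WT list. In 500 solitary regions (2.36%, 2.16 to 2.57%) it was at least 5 times the genome-wide value, where 3.53% of all Q592* GATA2 regions had such a background. It was at least 10 times in 40 (0.189%), against 0.113% of the GATA2 regions of both lines without another target and 0.549% of WT-alone regions.

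The 20 solitary regions with the highest −log10 q, between 69.2 and 139.5, had 160 to 513 reads at the summit. The first lay on chromosome 1 from 156864801 to 156865326 (hg19, counted from 1, as for all positions here) with 271 reads, a fold enrichment of 12.1 and a background of 3.43 times the genome-wide value. Its nearest GATA2 region of both lines was 31.6 kb away, whereas SMC3 was called 2.38 kb away in both lines. The region on chromosome 1 from 245133587 to 245133848 had 229 reads and a fold of 7.33, and another solitary region lay 1.08 kb from it. On chromosome 22 from 23429046 to 23429369 the summit held 213 reads with a fold of 7.89, and the nearest peak of the other 5 lists was 35.8 kb away. The region on chromosome 17 from 76869782 to 76870118 had 162 reads and a fold of 9.90, with a WT GATA2 peak no nearer than 47.6 kb. The 20 regions therefore ranged from places beside cohesin sites to places with no called neighbour in a wide interval.

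Among these strong regions, 4 lay within 1 kb of a peak of another list without touching it. On chromosome 3 from 128216495 to 128216756 (184 reads, fold 8.17) SMC3 was called 0.102 kb away in both lines, a GATA2 region of both lines lay at 1.91 kb and another solitary region at 0.77 kb. On chromosome 6 from 87865034 to 87865335 (290 reads, fold 5.10) a Q592* RUNX1 peak lay at 0.155 kb, and the nearest WT RUNX1 peak was 208.8 kb away. Beside the region on chromosome 2 from 169103348 to 169103590 (184 reads, fold 9.01) Q592* SMC3 was called at 0.296 kb, and the nearest WT SMC3 peak was at 37.8 kb. Beside the region on chromosome 19 from 10397496 to 10397785 (378 reads, fold 3.77) Q592* SMC3 was called at 0.71 kb. In all, 13 of the 20 had a peak of another list within 10 kb and 8 a WT GATA2 peak. Of all solitary regions, 62.2% and 46.0% had these, and 15.8% had another list within 1 kb, so the 20 were not set apart by such neighbours.

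High local background marked 8 of the 20, at 5 times the genome-wide value or more. The tallest summit, 513 reads on chromosome 19 from 38758319 to 38758594, stood on a background of 27.6 times the genome-wide value and had a fold of 3.002. That on chromosome 19 from 36205020 to 36205308 had 361 reads, a background of 12.8 times and a fold of 4.52. The one on chromosome 19 from 10397496 to 10397785 had a background of 16.1 times. Chromosome 19 supplied 4 of the 20, and its 364 solitary regions had a median −log10 q of 11.4, higher than on the 21 other autosomes, where the medians ran from 7.84 on chromosome 13 to 9.98 on chromosome 16. The part of the background in these peaks was not tested.

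At the edges of the rule, the weakest solitary regions had a −log10 q of 2.00 (chromosome 12 from 48499080 to 48499286), 2.01 (chromosome 1 from 65211826 to 65212156) and 2.02 (chromosome 18 from 9348122 to 9348302). At the other edge, 2 touched a peak of another list end to end without sharing a base: SMC3 of WT on chromosome 3 from 189622097 to 189622382, and SMC3 of both lines on chromosome 7 from 30934943 to 30935101. The next, on chromosome 13 from 111819159 to 111819320, lay 2 bp from a GATA2 region of both lines. Just outside the rule, regions on chromosome 5 from 75604803 to 75605165, on chromosome 1 from 114520592 to 114520996 and on chromosome 11 from 3476774 to 3477171 overlapped another list by 2, 3 and 3 bp. Such cases were rare, since 26 solitary regions lay within 10 bp of another list and 23 of the 36069 other Q592* GATA2 regions overlapped one by at most 10 bp.

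Solitary Q592* GATA2 sites lay in the same neighbourhoods as other GATA2 sites, slightly farther from them. The nearest GATA2 region of both lines was at a median distance of 13.4 kb, and 43.0% (42.3 to 43.7%) had one within 10 kb. For GATA2 regions of both lines without another target, the corresponding values to the next GATA2 region of both lines, with or without another target, were 11.3 kb and 46.9% (46.2 to 47.7%). WT-alone regions were closer, with 54.2% (52.6 to 55.7%) within 10 kb, and the Q592* GATA2 and RUNX1 regions farther, with 37.4% (34.5 to 40.4%). The stronger the solitary region, the less often a GATA2 region of both lines was near. From the weakest to the strongest quartile by −log10 q, 48.2%, 43.4%, 41.8% and 38.6% had one within 10 kb.

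Cohesin and RUNX1 were about as near to the solitary regions as to the GATA2 regions of both lines without another target. A Q592* SMC3 peak lay within 10 kb of 29.4% (28.8 to 30%) of the solitary regions and of 29.6% (28.9 to 30.3%) of the GATA2 regions of both lines without another target. For WT SMC3 the values were 38.0% (37.4 to 38.7%) and 40.1% (39.4 to 40.9%), for Q592* RUNX1 24.3% (23.7 to 24.9%) and 25.3% (24.7 to 26.0%), and for WT RUNX1 16.7% (16.2 to 17.2%) and 18.9% (18.3 to 19.5%). WT-alone GATA2 regions had WT RUNX1 within 10 kb in 29.2% (27.9 to 30.6%) and WT SMC3 in 47.2% (45.7 to 48.7%). The lists differ in length, and this sets the level of each share, so the comparison holds between kinds of region and not between lists.

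**Figure D2:**
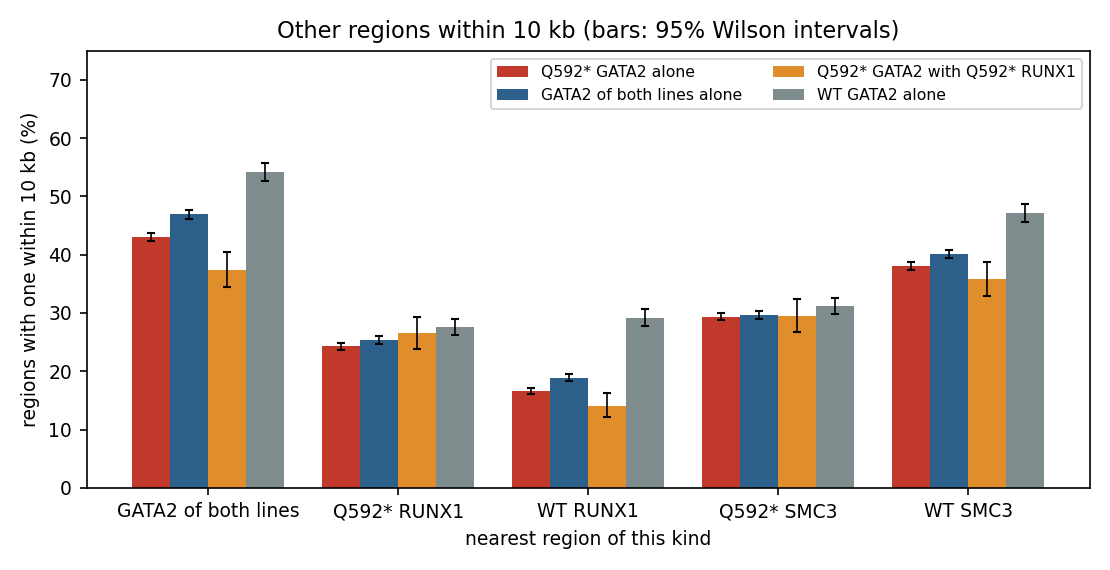
Share of regions (vertical axis, %) with a region of the kind named on the horizontal axis within 10 kb, for 4 kinds of GATA2 region, with 95% Wilson intervals as error bars. The Q592* GATA2-alone bars and those of GATA2 regions of both lines without another target differ by at most 4 percentage points, while WT GATA2-alone regions stand highest in all 5 groups.

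A small set of solitary regions was far from any other call. Another of the 5 lists had a peak within 1 kb of 3343 regions (15.8%), and at 1 to 10 kb from 9849 (46.4%). The nearest peak lay at 10 to 50 kb from 6814 (32.1%), at 50 to 100 kb from 820 (3.87%) and beyond 100 kb from 380 (1.79%). These isolated regions were not weaker by −log10 q: the median was 7.76 within 1 kb and 9.98 beyond 100 kb. Their summit coverage was slightly lower, at 6.33 times the mean beyond 100 kb and 7.14 times within 1 kb.

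GATA2 sites present in both lines had a higher summit coverage in Q592*, relative to each list's mean, with a median log2 ratio of 0.74 over 32433 regions. All of these had to be called in WT. The level of this ratio depends on the scaling of the lists. Local background at the same regions, each relative to its genome-wide value, had a median log2 ratio of 0.21. The ratio of summit coverage was compared by distance to a solitary region and was not used to choose the regions, since it comes from other places. The median log2 ratio of summit coverage was 0.77 for the 2117 GATA2 regions of both lines with a solitary region within 1 kb, 0.75 for 8690 at 1 to 10 kb, 0.73 for 13892 at 10 to 50 kb, 0.74 for 6824 at 50 to 200 kb and 0.77 for the 910 beyond. The medians did not go one way with distance. RUNX1 regions of both lines had medians of 0.63, 0.62, 0.61, 0.62 and 0.57.

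Cohesin sites called in 1 line alone, of either line, were more frequent around the solitary GATA2 sites. Of all 40491 autosomal WT SMC3 regions, 28.9% had no Q592* SMC3 peak. Within 1 kb of a solitary region 41.6% (39.1 to 44.2%) of 1482 had none, at 1 to 10 kb 37.5% (36.5 to 38.6%), at 10 to 50 kb 30.5% (29.8 to 31.2%), at 50 to 200 kb 21.9% (21.2 to 22.7%) and beyond 200 kb 18.1% (16.8 to 19.6%). In the other direction, 9.11% of all 31666 Q592* SMC3 regions had no WT SMC3 peak, and by the same distances the shares were 12.5% (10.6 to 14.7%), 11.6% (10.8 to 12.5%), 8.82% (8.34 to 9.33%), 8.25% (7.72 to 8.81%) and 7.15% (6.23 to 8.18%). At SMC3 regions of both lines, the median log2 ratio of summit coverage (Q592* over WT) was -0.11 within 1 kb and -0.17 beyond 200 kb. WT regions without a Q592* call are left out of this ratio, and they are a larger share near the solitary regions. It therefore cannot show whether SMC3 was lower there. The level of this ratio depends on the scaling of the lists, and its difference with distance does not. The WT SMC3 shares were then split by the other GATA2 sites nearby. Among WT SMC3 regions that held no GATA2 peak themselves, 15.6% (15.1 to 16.2%) lacked Q592* SMC3 where no GATA2 of either kind lay within 10 kb, 21.6% (20.1 to 23.1%) where a solitary region alone did, 28.2% (27.01 to 29.4%) where a GATA2 region of both lines alone did, and 36.1% (34.2 to 38.1%) where both did.

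The strength of these cohesin peaks moved with the same classes. Their median −log10 q in WT was 30.2 with no GATA2 near, 27.6 beside a solitary region, 24.7 beside a GATA2 region of both lines and 17.5 beside both. Among peaks with a −log10 q of at least 20, 0.911%, 1.23%, 1.20% and 1.48% lacked Q592* SMC3, and below 20 the shares were 40.7%, 50.8%, 61.1% and 66.9%. The part of peak strength within these classes was not tested. For RUNX1 the split was made in the other direction, over Q592* RUNX1 regions without GATA2, so it is not the counterpart of the SMC3 split. WT RUNX1 was missing at 73.8% (71.7 to 75.8%) with no GATA2 near, 71.9% (68.05 to 75.5%) beside a solitary region, 66.0% (62.8 to 69.03%) beside a GATA2 region of both lines and 67.4% (63.1 to 71.4%) beside both, where 48.6% of all Q592* RUNX1 regions had no WT partner. Of all Q592* RUNX1 regions within 1 kb of a solitary region 46.7% had no WT RUNX1 peak, and beyond 200 kb 59.4%. Of WT RUNX1 regions at these distances, 16.5% and 31.4% had no Q592* RUNX1 peak.

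**Figure D3:**
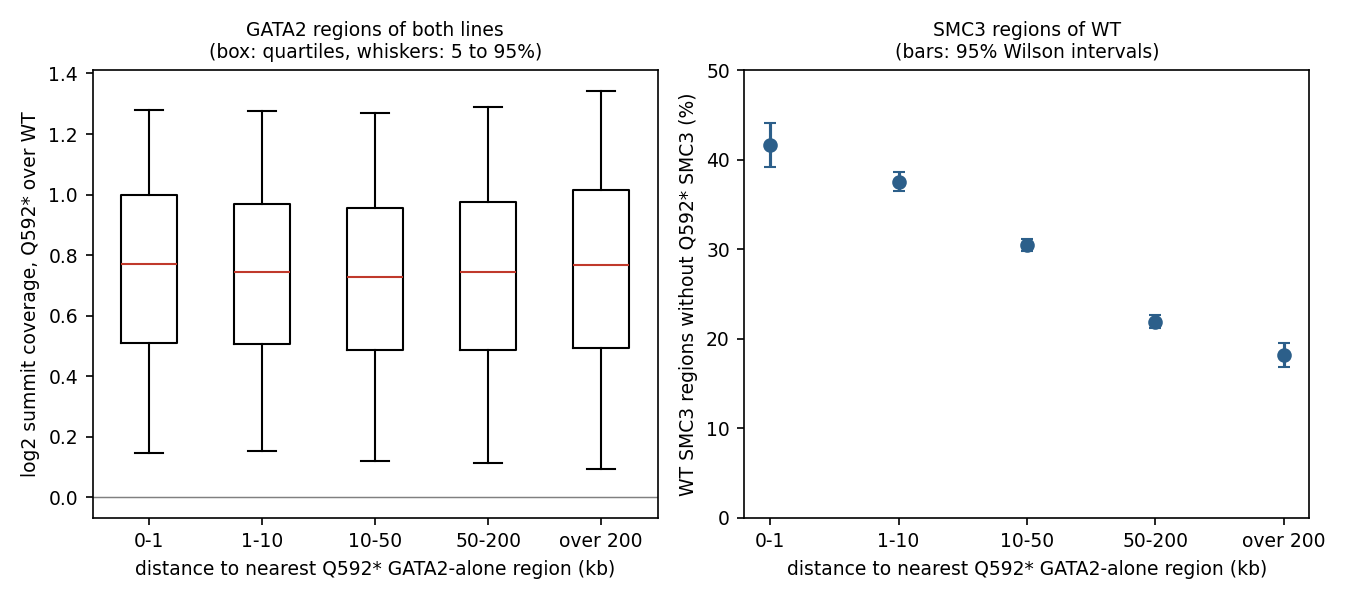
Left, log2 ratio of summit coverage (Q592* over WT) at GATA2 regions of both lines, and right, percentage of WT SMC3 regions without a Q592* SMC3 peak, each by distance (kb) to the nearest Q592* GATA2-alone region. The medians at left stay between 0.73 and 0.77, and the shares at right go from 41.6% within 1 kb to 18.1% beyond 200 kb.

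Solitary GATA2 regions were found on every autosome, in similar proportion to the other Q592* GATA2 regions. Their share of the Q592* GATA2 regions ran from 32.3% on chromosome 21 (28.8 to 35.9%) to 41.5% on chromosome 4 (39.8 to 43.2%), around the 37.0% of all autosomes. They outnumbered the regions with GATA2 in both lines and no other target on 22 of 22 autosomes, with ratios from 1.01 on chromosome 21 to 1.59 on chromosome 22. They also outnumbered WT-alone regions on 22 of 22, but here the ratio varied more, from 1.75 on chromosome 13 and 2.23 on chromosome 21 to 16.2 on chromosome 17. The Q592* GATA2 list was the longer, with 57483 autosomal peaks against 38063 in WT. With lists of equal length the ratio over all autosomes was 1.02, and counts by chromosome were not repeated at equal lengths.

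**Figure D4:**
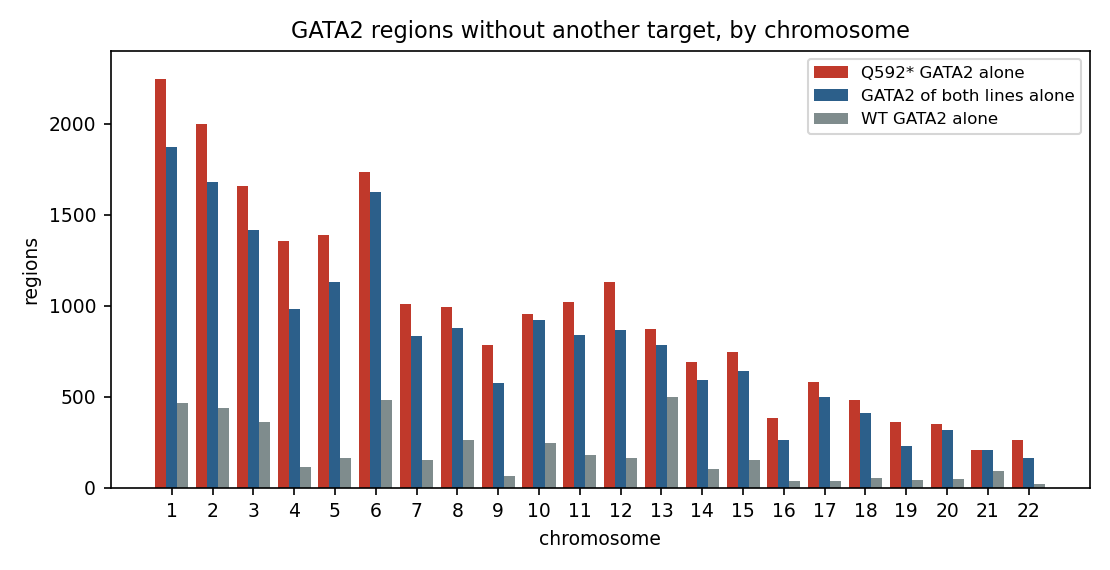
Number of regions (vertical axis) on each autosome for Q592* GATA2 alone, GATA2 of both lines alone and WT GATA2 alone. The Q592* GATA2-alone bar is the tallest on all 22 autosomes, and WT GATA2-alone regions are most numerous on chromosome 13, at 500. The Q592* GATA2 list is longer than the WT one.

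On a finer scale both the number and the share of solitary regions varied between windows. In 528 windows of 5 Mb with at least 20 Q592* GATA2 regions, the share of solitary ones had a median of 37.3% and quartiles of 33.3 and 41.7%, and no window was without one. The 95% interval of 466 windows included the overall 37.0%, that of 35 lay above it and that of 27 below. The most solitary regions lay on chromosome 3 from 170 to 175 Mb, where there were 136 of 398 (34.2%), on chromosome 6 from 25 to 30 Mb with 115 of 333 (34.5%) and on chromosome 2 from 170 to 175 Mb with 106 of 282 (37.6%). The highest shares, 60.0%, were found on chromosome 3 from 75 to 80 Mb and on chromosome 7 from 45 to 50 Mb, each with 12 of 20, followed by chromosome 4 from 160 to 165 Mb with 37 of 63 (58.7%). The lowest were on chromosome 8 from 40 to 45 Mb with 10 of 44 (22.7%), on chromosome 18 from 15 to 20 Mb with 6 of 26 (23.1%) and on chromosome 1 from 215 to 220 Mb with 7 of 30 (23.3%).

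**Figure D5:**
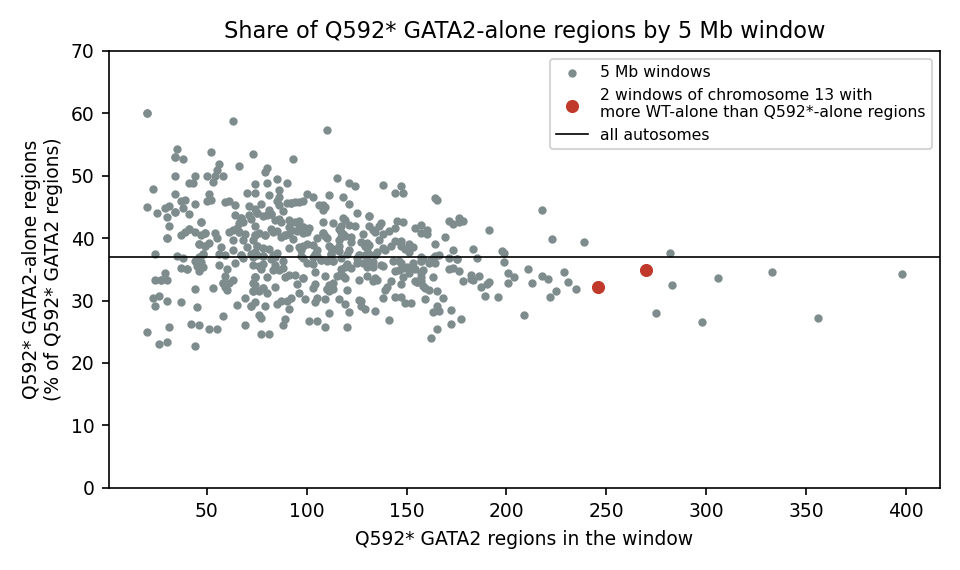
Share of Q592* GATA2 regions that are Q592* GATA2 alone (vertical axis, %) against the number of Q592* GATA2 regions in the same window (horizontal axis), 1 point per 5 Mb window, with the share over all autosomes as a line. The spread narrows as windows hold more regions, and the 2 marked windows of chromosome 13 sit at 34.8% and 32.1%.

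Solitary regions also formed local runs, but runs of other kinds of region were not counted, so this is not a trait particular to them. Another solitary region lay within 50 kb of 72.3% of the solitary regions. A solitary region lay that near to 74.7% of the GATA2 regions of both lines without another target. A GATA2 region of both lines, with or without another target, lay within 50 kb of 80.4% of the solitary regions. Of the GATA2 regions of both lines without another target, 84.5% had a further one of that kind within 50 kb. With members of a run at most 50 kb apart, the 21206 regions fell into 10682 runs, of which 5874 were single regions and 750 held 5 or more, with 4910 regions (23.2%) in them. The runs depend on this distance: at most 10 kb apart, 14765 regions (69.6%) were single, 38 runs held 5 or more, with 203 regions (0.957%) in them, and the longest held 8. The longest run at 50 kb, on chromosome 3 from 151900928 to 152098278, held 20 solitary regions in 197.4 kb, among 33 Q592* GATA2 regions and 13 WT ones. Its peaks had −log10 q values from 4.19 to 21.7. Runs of 18 on chromosome 7 from 106606077 to 106806144, of 17 on chromosome 2 from 145025100 to 145276673, of 16 on chromosome 2 from 37533283 to 37764754 and of 16 on chromosome 3 from 173353658 to 173666290 followed. Each of these 5 runs also contained 9 to 22 GATA2 regions of both lines, and none lacked SMC3 or RUNX1 peaks. In the run on chromosome 2 from 145025100 there were 23 WT SMC3 regions and 7 Q592* ones, and in that on chromosome 3 from 151900928 there were 9 and 9.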

How the data were processed

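Each of the 6 deposited lists gives peaks with a fold enrichment (a ratio), a −log10 p-value, a −log10 q-value and a score. The deposited score repeats the −log10 q on a coarser scale and was left aside. The tools were Bowtie2, Picard and MACS2 and the build hg19, per the submitters' processing notes; settings were not given in the sources used here. Each list was taken as a pool of its group's libraries because its peak names say merge. The lowest −log10 q was 2.00 to 2.05.

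Reads at each summit were recovered from the deposited fold and p-value, which MACS2 computes from a whole number of ChIP reads times a constant worth and a Poisson background. All peaks of each list gave whole reads within 0.002 of the −log10 p, against at most 1.65% of the first peaks of a list with the worth wrong by 3%. The mean coverage is the genome-wide background pileup divided by that worth and ran from 4.83 to 6.16 reads over the lists.

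Regions, distances and recovery were tested on simulated data. Distances count the bases between region edges. The members, the region rule and the lists were chosen with earlier results of these data known. Regions named in the text are the 20 strongest by −log10 q, those at the edges of the rule, extreme windows and the 5 largest runs. Gene names, motifs and sequences need hg19 annotation or sequence, which were not used here. Alternatives (strength, list length, overlap, chromosomes) were tried. Python 3.11.15 was used with matplotlib 3.10.9, scipy 1.17.1, pandas 2.3.3 and numpy 2.4.6.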

Additional observations from a re-analysis of the deposited data

How the results depend on the processing

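No paired analysis was possible because each peak list pools its libraries and gives no replicate number; for the same reason no library could be left out. The alternatives for the ratio of Q592*-alone to WT-alone regions were chosen after the data were seen, and the others were planned; planned motif and gene counts were not run for want of hg19 sequence and annotation. Of 32 alternative values 12 stayed within the set limits. For the others the cause was not tested, beyond the shorter lists that a threshold or equal lengths leave. With all 6 lists held to a −log10 q of 10 or more, the solitary regions numbered 14731 (within 1.5 times), their ratio to WT-alone regions was 12.3, their median −log10 q 15.4, and 32.9% lay within 10 kb of GATA2 of both lines and 26.1% of WT SMC3. With that threshold on the Q592* GATA2 list alone the values were 8037, 14.2, 36.9% and 36.6%. Equal list lengths gave 8442 regions, a ratio of 1.02, a median of 14.3, and 36.8% and 29.6%. A reciprocal overlap of 50% gave a median of 8.90, 40.6% and 41.4%, summits within 200 bp gave 38.8% for WT SMC3, and leaving out regions with another list within 1000 bp gave 8.58, 36.4% and 32.8%. Weak peaks near the lists' thresholds limit all counts.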

Other observations

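In one segment of chromosome 13 WT-alone GATA2 regions outnumbered Q592*-alone ones, although the share of solitary regions in Q592* did not stand out there (this segment was picked with its counts known). Its windows from 85 to 90 and from 90 to 95 Mb held 270 and 246 Q592* GATA2 regions. At GATA2 regions of both lines in these windows, the median log2 ratio of summit coverage (Q592* over WT) was 0.46 and 0.60, against 0.74 over all autosomes. Low ratios were not particular to them, with 0.12 on chromosome 16 from 45 to 50 Mb. From 85 to 90 Mb there were 94 Q592*-alone and 151 WT-alone GATA2 regions, and from 90 to 95 Mb 79 and 170. They were the only 2 of 528 windows in which WT-alone regions were more numerous. The Q592*-alone regions nonetheless made up 34.8% (29.4 to 40.7%) and 32.1% (26.6 to 38.2%) of the Q592* GATA2 regions there, and both intervals include the overall 37.0%. Their median −log10 q was 6.72 and 6.53, below the 8.397 of all solitary regions. Other windows also had low medians, such as 5.73 on chromosome 1 from 70 to 75 Mb. Next to them, from 75 to 80 and from 80 to 85 Mb, there were 92 and 60 Q592*-alone and 77 and 38 WT-alone regions. The median log2 ratio of summit coverage was 0.61 and 0.60 there. Farther away, from 65 to 70 Mb, 39 of 73 Q592* GATA2 regions were solitary (53.4%, 42.1 to 64.4%) and 1 region was WT-alone.

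The local background of the GATA2 lists also varied between windows. Its median log2 ratio at GATA2 regions of both lines, Q592* over WT and each relative to its genome-wide value, was 0.01 in the quartile of windows with the lowest values and 0.33 in the quartile with the highest, and the share of solitary regions was 39.4% and 35.0%. In the windows from 85 to 95 Mb of chromosome 13 the log2 ratio was 0.33 and 0.38. The part of the background in these shares was not tested.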
